A study of Arabidopsis thaliana with 18 samples.

Results

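The 9 genes described here are regulators of root meristem patterning in Arabidopsis thaliana: PLT1 (AT3G20840), PLT2 (AT1G51190), PLT3 (AT5G10510), BBM (AT5G17430), SHR (AT4G37650), SCR (AT3G54220), WOX5 (AT3G11260), JKD (AT5G03150) and MGP (AT1G03840). They were taken by locus identifier, with earlier results of these data known, and all 9 were present among the 32833 loci of every file. Whole seedlings were profiled by RNA-seq at an age of 4 days. After blue light, cry2_Blue held 3 libraries of the cryptochrome 2 mutant cry2-1 and WT_Blue held 3 libraries of the wild type Col-0. Both had been raised in darkness and then exposed to blue light at 30 μmol per square metre and second for 30 min. In continuous darkness, cry2_Dark held 3 libraries of cry2-1 and flΔ4_Dark held 3 libraries of the quadruple mutant fkd1 fl1-2 fl2 fl3. WT_Dark held 6 libraries of Col-0, numbered 1 to 6 in the labels.

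Root growth is sustained by a stem cell niche at the tip, in which dividing initials surround a small quiescent centre. PLETHORA genes encode AP2-domain transcription factors that act as dose-dependent determinants of this niche, downstream of auxin. In a second, radial pathway, the GRAS-domain protein SHORT-ROOT is made in the stele and moves one layer outward. There it acts with SCARECROW, another GRAS-domain protein, and with the zinc-finger proteins JACKDAW and MAGPIE to specify the ground tissue and to position the quiescent centre.

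Values are in TPM, a transcript abundance scaled by gene length and to a common library total, deposited without counts, so the depth of each library is unknown and no counting interval can be given. Each library had 18493 to 19645 loci at 1 TPM or more. CRY2 was listed at 0.03 to 0.06 TPM in cry2_Blue, 73.3 to 90.6 TPM in WT_Blue, 0 in all 3 cry2_Dark libraries and 99.8 to 110 TPM in WT_Dark 1-3. The loci AT1G04410 and AT1G04420 were at 0.22 TPM or less in every cry2 library, against at least 59.4 TPM in every wild-type library, so a difference between cry2-1 and Col-0 cannot be assigned to CRY2 alone. FKD1 was still detected in flΔ4_Dark, at 3.70 to 5.76 TPM, against 5.67 to 8.76 TPM in WT_Dark 4-6, which leaves that genotype unchecked by transcript level. The column headers carry 1 prefix for both blue groups, another for flΔ4_Dark and WT_Dark 4-6, and 1 each for cry2_Dark and for WT_Dark 1-3. Light and header prefix therefore cannot be told apart. Neither can genotype and header prefix between cry2_Dark and WT_Dark 1-3. The WT_Dark libraries, which share all their labels, also stood apart by number: loci annotated as ribosomal RNA summed to 6550 to 7907 TPM in WT_Dark 4-6, against sums of 41040 to 48180 TPM in WT_Dark 1-3. For this reason the members' light results in wild type are given against both dark sets.

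JKD, SCR and SHR were the most abundant members, with means over the 18 libraries of 29.1, 21.5 and 18.6 TPM. PLT3 followed at 4.64 TPM. WOX5 and MGP were close to 1 TPM, at 1.07 and 1.01 TPM, and did not differ beyond their spread. BBM averaged 0.718 TPM, PLT1 0.507 TPM and PLT2 0.330 TPM, and these 3 also overlapped one another across libraries. JKD was above 82.3% of all loci by its mean and PLT2 above 33.4%. The summed level of all 9 members was 60.4 to 69.5 TPM in cry2_Blue, 56.0 to 62.6 TPM in WT_Blue, 86.6 to 103 TPM in cry2_Dark, 56.7 to 77.3 TPM in flΔ4_Dark, 75.1 to 86.9 TPM in WT_Dark 4-6, and, in WT_Dark 1-3, 94.7 to 105 TPM. Both blue groups lay below every wild-type and cry2-1 dark library, while the flΔ4_Dark range overlapped those of the blue groups and of WT_Dark 4-6. Because whole seedlings were pooled into each RNA sample, fewer cells that express a gene and less RNA per cell cannot be told apart.

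**Figure D1:**
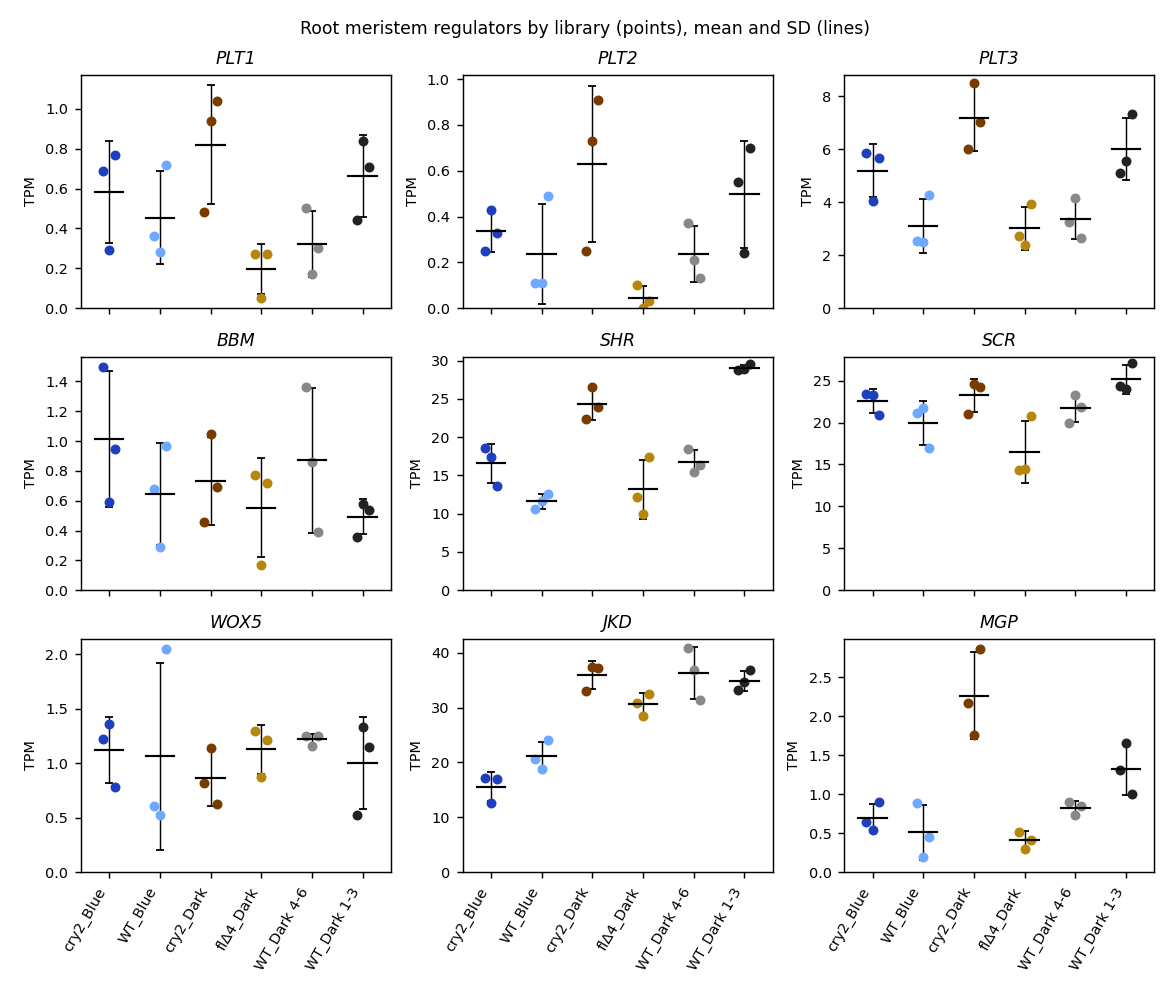
TPM of the 9 members (1 panel each, linear axis from 0) in the 3 libraries of each group, with WT_Dark split into libraries 4-6 and 1-3; points are libraries, horizontal lines are means and bars are SD. JKD lies at 12.5 to 24.0 TPM in the 6 blue libraries and at 28.5 to 40.8 TPM in the 12 dark ones, while PLT1, PLT2, BBM and WOX5 overlap between most groups.

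The first comparison asks how the members' transcripts differed after 30 min of blue light in the wild type. Of the 6 members that passed the filter of a mean of 1 TPM, 5 were lower in WT_Blue than in WT_Dark 1-3 and none was higher (limma on log2(TPM + 1), Benjamini-Hochberg adjusted p under 0.05 over 19985 genes). In the same comparison 32.9% of all genes tested were lower and 28.7% higher, so calls were common in both directions. Against WT_Dark 4-6, 2 members, SHR and JKD, were lower, where 20.1% of 19888 genes tested were lower and 9.08% higher. In cry2-1, 3 members (SHR, JKD and MGP) were lower in cry2_Blue than in cry2_Dark, where 30.2% of all genes were lower and 25.8% higher. All fold changes below are on the log2(TPM + 1) scale, which understates the change of genes near or under 1 TPM.

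SHR, the mobile factor of the radial pathway, was lower after blue light in all 3 of these contrasts. Its level was 10.7, 11.6 and 12.6 TPM in WT_Blue, against 28.8, 28.9 and 29.5 TPM in WT_Dark 1-3 and 18.4, 15.5 and 16.3 TPM in WT_Dark 4-6. No WT_Blue library reached any wild-type dark library, yet the dark sets themselves were farther apart than WT_Blue and WT_Dark 4-6. The log2 change was -1.25 ± 0.12 (SE, n = 3 each, adjusted p = 1.77e-06, limma) against WT_Dark 1-3 and -0.49 ± 0.13 (adjusted p = 0.0149, limma) against WT_Dark 4-6. In cry2-1, SHR stood at 18.6, 17.4 and 13.7 TPM in cry2_Blue and 22.4, 26.6 and 23.9 TPM in cry2_Dark. Here too the groups did not overlap, and the log2 change was -0.53 ± 0.12 (adjusted p = 0.00212, limma).

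JKD, a zinc-finger protein that binds SHR and SCR and is needed to keep SCR expressed, had nearly the same light difference against either dark set. It had 20.7, 18.8 and 24.0 TPM in WT_Blue, against 33.3, 34.6 and 36.9 TPM in WT_Dark 1-3 and 40.8, 36.8 and 31.3 TPM in WT_Dark 4-6. All 3 WT_Blue libraries lay below all 6 WT_Dark libraries. The log2 change was -0.70 ± 0.13 (adjusted p = 0.000408, limma) against WT_Dark 1-3 and -0.75 ± 0.14 (adjusted p = 0.00300, limma) against WT_Dark 4-6. In cry2-1 the level was 17.2, 12.5 and 17.0 TPM in cry2_Blue and 33.1, 37.4 and 37.2 TPM in cry2_Dark, again without overlap. That change, -1.16 ± 0.13 (adjusted p = 8.58e-06, limma), corresponds to 0.446 of the dark value on the log2(TPM + 1) scale. Against WT_Dark 4-6 the median of all genes was itself shifted by -0.17, and relative to it JKD changed by -0.58 and SHR by -0.32. SHR and JKD also kept their direction and their call in each of the 13 alternatives run for wild type and the 11 run for cry2-1. Those for cry2-1 did not vary the dark set, as cry2-1 had no other.

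The 250 bases upstream of the annotated transcription starts of JKD and SHR, the members lower after light in every contrast, are shown beside those of SCR, which was not. They come from the TAIR10.1 genome with its own RefSeq annotation, on the plus strand, at chr5:745171-745420 for JKD, chr4:17691437-17691686 for SHR and chr3:20069737-20069986 for SCR. Capitals mark a G-box, CACGTG, a palindrome that reads the same on both strands and contains the ACGT core.
JKD: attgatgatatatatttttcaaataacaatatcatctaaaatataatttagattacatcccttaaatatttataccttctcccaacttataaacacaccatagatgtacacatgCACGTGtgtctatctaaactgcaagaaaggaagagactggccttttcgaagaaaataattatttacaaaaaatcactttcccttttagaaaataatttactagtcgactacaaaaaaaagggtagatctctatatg
SHR: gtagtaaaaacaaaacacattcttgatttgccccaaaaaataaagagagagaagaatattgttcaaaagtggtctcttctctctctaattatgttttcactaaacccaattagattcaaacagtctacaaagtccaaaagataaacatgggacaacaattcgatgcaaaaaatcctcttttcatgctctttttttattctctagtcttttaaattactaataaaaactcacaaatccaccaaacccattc
SCR: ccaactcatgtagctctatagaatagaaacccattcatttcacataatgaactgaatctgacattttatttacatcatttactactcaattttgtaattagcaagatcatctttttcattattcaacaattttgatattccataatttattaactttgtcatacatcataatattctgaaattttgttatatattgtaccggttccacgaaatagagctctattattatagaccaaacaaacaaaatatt

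JKD was the 1 member of 9 with CACGTG in this window, and 6.49% of the 27443 windows of the same length in the annotation hold it. The letters TGTCTC, searched on both strands, occurred in 1 member, BBM, and in 10.9% of all windows. The shorter ACGT, which every CACGTG contains, was present in PLT1, PLT3, WOX5 and JKD and in 44.1% of all windows. A match or its absence describes these letters in this window and says nothing of a factor's binding.

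SCR, which acts with SHR in the endodermis and the quiescent centre, differed less. It had 21.2, 21.7 and 17.0 TPM in WT_Blue, against 24.3, 24.0 and 27.1 TPM in WT_Dark 1-3 and 20.0, 23.3 and 21.9 TPM in WT_Dark 4-6. WT_Blue lay below WT_Dark 1-3 without overlap, with a log2 change of -0.33 ± 0.11 (adjusted p = 0.0242, limma), but overlapped WT_Dark 4-6, where the change was -0.12 ± 0.12 (adjusted p = 0.448, limma). In cry2-1, SCR had 23.4, 23.3 and 20.9 TPM in cry2_Blue and 21.0, 24.6 and 24.2 TPM in cry2_Dark. That difference, -0.04 with a 95% interval of -0.29 to 0.20, did not pass the test. The wild-type call was also lost without WT_Dark 3 (adjusted p = 0.0902, limma) and without WT_Blue 3 (adjusted p = 0.0913, limma).

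PLT3, a PLETHORA factor that acts redundantly with PLT1 and PLT2, had 2.52, 2.49 and 4.27 TPM in WT_Blue, against 5.11, 5.57 and 7.32 TPM in WT_Dark 1-3 and 3.24, 4.17 and 2.66 TPM in WT_Dark 4-6. The blue libraries were below the first dark set and overlapped the second. Its log2 change was -0.79 ± 0.20 (adjusted p = 0.00411, limma) against WT_Dark 1-3 and -0.10 ± 0.21 (adjusted p = 0.732, limma) against WT_Dark 4-6. In cry2-1 the values were 5.85, 4.05 and 5.67 TPM in cry2_Blue and 6.02, 8.50 and 7.01 TPM in cry2_Dark. These did not overlap, but the change of -0.40 ± 0.20 did not pass the threshold (adjusted p = 0.103, limma). In the TAIR10.1 annotation PLT3 overlaps AT5G10520 on the opposite strand by 454 bases. The library kit marks strand, but whether reads were assigned by strand is not given in the sources used here.

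MGP, a zinc-finger relative of JKD and a target of SHR and SCR, was at the edge of the filter. It had 0.89, 0.20 and 0.45 TPM in WT_Blue, against 1.31, 1.66 and 1.00 TPM in WT_Dark 1-3 and 0.90, 0.73 and 0.85 TPM in WT_Dark 4-6. The change was -0.63 ± 0.21 (adjusted p = 0.0201, limma) against WT_Dark 1-3, where the groups did not overlap, and -0.30 ± 0.21 (adjusted p = 0.298, limma) against WT_Dark 4-6, where they did. Without WT_Dark 2 or without WT_Blue 2 the first call was lost, at adjusted p = 0.0804 and 0.0886 (limma). The cry2-1 difference was larger in TPM, with 0.65, 0.54 and 0.90 TPM in cry2_Blue and 2.17, 1.76 and 2.86 TPM in cry2_Dark. Its change was -0.94 ± 0.21 (adjusted p = 0.00241, limma). MGP averaged under 1 TPM in both blue groups and passed the filter only through dark libraries, so its calls are a description, and without it 4 of 5 members were lower in WT_Blue than in WT_Dark 1-3 and 2 of 5 in cry2_Blue than in cry2_Dark.

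WOX5, the homeodomain factor that marks the quiescent centre, had 0.61, 0.53 and 2.05 TPM in WT_Blue, 0.53, 1.33 and 1.15 TPM in WT_Dark 1-3 and 1.25, 1.16 and 1.25 TPM in WT_Dark 4-6. The single library WT_Blue 3 held the highest value of the series, and the remaining libraries of both conditions overlapped. Its change was -0.01 against WT_Dark 1-3, with a 95% interval of -0.60 to 0.58, and turned to 0.06 under quantile normalization. Against WT_Dark 4-6 it was -0.18 (adjusted p = 0.617, limma). In cry2-1 it was 0.19, with an interval of -0.40 to 0.77.

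PLT1, PLT2 and BBM stayed under the filter in every fit. Across all 18 libraries PLT1 ranged over 0.05 to 1.04 TPM, PLT2 over 0 to 0.91 TPM and BBM, a PLETHORA relative first known from embryo formation, over 0.17 to 1.5 TPM. PLT2 reached 1 TPM in 0 libraries, PLT1 in 1 and BBM in 3. From the fit without a filter, the WT_Blue change against WT_Dark 1-3 was -0.20 for PLT1, -0.28 for PLT2 and 0.12 for BBM, each with a 95% interval that included 0. For all 3 genes WT_Blue overlapped both dark sets, and cry2_Blue overlapped cry2_Dark.

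**Figure D2:**
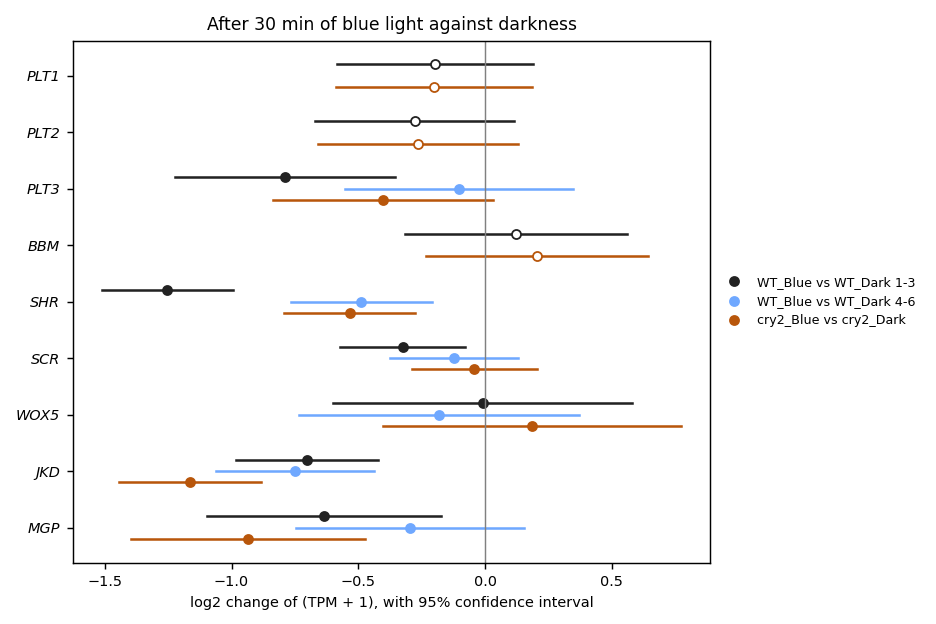
Log2 change of (TPM + 1) after blue light against darkness for each member, with 95% confidence intervals; black is WT_Blue against WT_Dark 1-3, light blue WT_Blue against WT_Dark 4-6 and brown cry2_Blue against cry2_Dark. Open markers are genes under the filter, taken from the fit without it, and have no light blue value. SHR and JKD lie left of 0 with all 3 intervals, whereas the light blue intervals of PLT3, SCR and MGP cross 0.

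The cry2-1 mutant was set against the wild type after blue light, within 1 header prefix. None of the 6 members tested was called in either direction (limma), where 3.34% of all genes were. An unadjusted p under 0.05 was found for 3 members, and the share of all genes under that threshold is not given here. SHR was higher in every cry2_Blue library, at 13.7 to 18.6 TPM, than in any WT_Blue library, at 10.7 to 12.6 TPM, but its change of 0.47 ± 0.12 had an adjusted p of 0.0524 (limma). JKD was lower in every cry2_Blue library, at 12.5 to 17.2 TPM, than in any WT_Blue library, at 18.8 to 24.0 TPM, with a change of -0.42 ± 0.13 (adjusted p = 0.0888, limma). PLT3 had 4.05 to 5.85 TPM in cry2_Blue and 2.49 to 4.27 TPM in WT_Blue, and its change was 0.61 ± 0.20 (adjusted p = 0.110, limma). The median of all genes was shifted by 0.11 in this contrast and by 0 after quantile normalization. Relative to that median the changes were 0.36 for SHR, -0.53 for JKD and 0.50 for PLT3. SHR passed the threshold with a pseudocount of 0.1 TPM (adjusted p = 0.0492), without WT_Blue 3 (adjusted p = 0.0419) and without cry2_Blue 3 (adjusted p = 0.0174, limma throughout), and PLT3 passed without WT_Blue 3 (adjusted p = 0.0358, limma).

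These dark groups carry different header prefixes. Loci annotated as ribosomal RNA summed to 9565 to 12665 TPM in cry2_Dark, against 41040 to 48180 TPM in WT_Dark 1-3. In darkness, cry2_Dark differed from WT_Dark 1-3 in 0 of 6 members tested (limma), where 12.9% of all genes were called. Only MGP had an unadjusted p under 0.05, a threshold for which no share of all genes is given here. MGP, at 1.76 to 2.86 TPM in cry2_Dark against 1.00 to 1.66 TPM in WT_Dark 1-3, did not overlap between them and had a change of 0.49 ± 0.21 (adjusted p = 0.155, limma). SHR lay at 22.4 to 26.6 TPM in cry2_Dark, below its 28.8 to 29.5 TPM in WT_Dark 1-3, with a change of -0.25 ± 0.12 (adjusted p = 0.185, limma). JKD changed by 0.04, with a 95% interval of -0.24 to 0.32, and by -0.05 without ribosomal RNA and organelle loci. Against WT_Dark 4-6 instead, PLT3 (0.91), SHR (0.51) and MGP (0.82) were higher in cry2_Dark at adjusted p of 0.00428, 0.00743 and 0.00763 (limma), where 20.5% of all genes were higher and 20.2% lower. The direction of SHR thus turned with the dark set.

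The test of whether the light difference itself differed between genotypes called 1 of 6 members, SHR, where 2.81% of all genes were called. The dark groups in this test carry different header prefixes, so genotype and prefix cannot be told apart in it. SHR fell by less in cry2-1, with a difference of changes of 0.72 ± 0.17 (adjusted p = 0.0435, limma). With WT_Dark 4-6 as the dark wild type the same quantity was -0.04 ± 0.18 (adjusted p = 0.883, limma), where 22.5% of all genes were called. The SHR call with WT_Dark 1-3 was lost without 9 of the 12 libraries, each left out in turn, at adjusted p of 0.0789 to 0.108, and held without cry2_Blue 3, WT_Blue 3 or cry2_Dark 2 (limma). It was also lost without a filter (adjusted p = 0.0557), under quantile normalization (adjusted p = 0.0505), with the replicate number as a block (adjusted p = 0.0649) and with all 6 WT_Dark libraries (adjusted p = 0.771, limma throughout). For JKD the difference of changes was -0.46 with WT_Dark 1-3 and -0.41 with WT_Dark 4-6, and neither passed (adjusted p = 0.188 and 0.163, limma).

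The flΔ4 mutant was compared with WT_Dark 4-6, which shares its header prefix. FORKED1 and the FORKED1-LIKE genes are known for closed leaf vein patterns. None of the 5 members tested was called (limma), where 0.304% of 19411 genes were. Only SCR had an unadjusted p under 0.05, a threshold for which no share of all genes is given here. SCR had 14.3, 14.5 and 20.8 TPM in flΔ4_Dark and 20.0, 23.3 and 21.9 TPM in WT_Dark 4-6, for a change of -0.39 ± 0.17 (adjusted p = 0.237, limma). SHR had 12.2, 9.92 and 17.4 TPM in flΔ4_Dark and 18.4, 15.5 and 16.3 TPM in WT_Dark 4-6, for a change of -0.35 ± 0.20 (adjusted p = 0.344, limma). In both genes flΔ4_Dark 3 lay within the wild-type range while the other flΔ4_Dark libraries lay below it. Without flΔ4_Dark 3, SCR (-0.56, adjusted p = 0.0336) and SHR (-0.56, adjusted p = 0.0472) passed the threshold (limma). In that setting 2940 genes were called, against 59 with all 6 libraries. Loci annotated as ribosomal RNA summed to 31348, 15784 and 11755 TPM in flΔ4_Dark 1, 2 and 3, against 6550 to 7907 TPM in WT_Dark 4-6. The library left out thus held the lowest of these flΔ4_Dark sums, and the part of this difference in the calls was not tested.

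Among the remaining members, JKD had 28.5 to 32.5 TPM in flΔ4_Dark and 31.3 to 40.8 TPM in WT_Dark 4-6 (log2 change -0.23, 95% interval -0.55 to 0.08). MGP, under the filter in this fit, had 0.30 to 0.52 TPM in flΔ4_Dark and 0.73 to 0.90 TPM in WT_Dark 4-6. PLT2 had 0 to 0.10 TPM in flΔ4_Dark and 0.13 to 0.37 TPM in WT_Dark 4-6. Neither of these pairs overlapped, and from the fit without a filter their adjusted p were 0.212 and 0.276 (limma). PLT3 changed by -0.12 and WOX5 by -0.07, and both turned positive under quantile normalization, to 0.03 and 0.10. The median of all genes was shifted by -0.12 here and by -0.01 after quantile normalization, and relative to it SCR changed by -0.27 and SHR by -0.24. Against WT_Dark 1-3, SHR (-1.12), SCR (-0.60) and PLT3 (-0.81) were lower in flΔ4_Dark at adjusted p of 0.00115, 0.0143 and 0.0128 (limma), where 25.4% of all genes were lower and 24.4% higher.

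**Figure D3:**
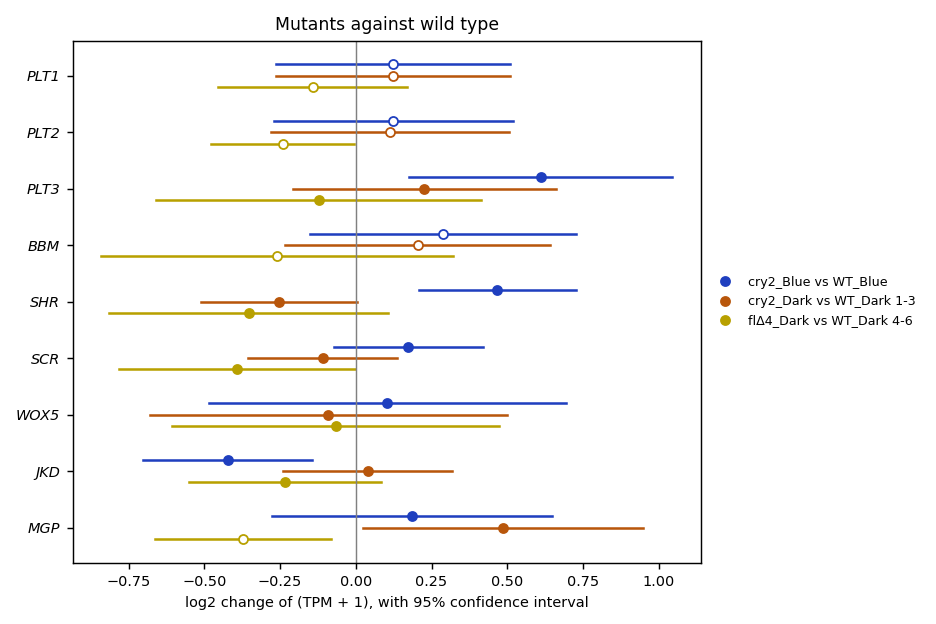
Log2 change of (TPM + 1) of each member in the mutants against wild type, with 95% confidence intervals; blue is cry2_Blue against WT_Blue, brown cry2_Dark against WT_Dark 1-3 and yellow flΔ4_Dark against WT_Dark 4-6. Open markers are genes under the filter, taken from the fit without it. No filled marker passed the adjusted threshold; after blue light SHR and PLT3 lie right of 0 and JKD left of it.

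The spread between the dark wild-type sets gives a scale for these values. SHR and PLT3 were lower in WT_Dark 4-6 than in WT_Dark 1-3, with changes of -0.76 ± 0.10 (adjusted p = 0.000419) and -0.69 ± 0.18 (adjusted p = 0.0138), although all 6 libraries carry the same labels (limma, where 21.1% of 19703 genes were lower and 29.8% higher). Without WT_Dark 3 the PLT3 change missed the threshold (adjusted p = 0.0506, limma). SCR changed by -0.20 (adjusted p = 0.125, limma) without overlap of the libraries, and was called lower without ribosomal RNA and organelle loci (-0.31, adjusted p = 0.0326) and under quantile normalization (-0.30, adjusted p = 0.0306, limma). MGP changed by -0.34 (adjusted p = 0.168, limma). JKD changed by 0.05, with a 95% interval of -0.21 to 0.31, turning to -0.05 without ribosomal RNA and organelle loci and to -0.02 under quantile normalization. Of the members called lower after light in wild type, JKD was therefore the one whose dark sets differed least.

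Ratios within a library do not depend on its scaling. SHR over SCR averaged 0.594 ± 0.132 in WT_Blue, against 1.16 ± 0.063 in WT_Dark 1-3 and 0.778 ± 0.133 in WT_Dark 4-6 (SD, n = 3 each). In cry2-1 it averaged 0.732 ± 0.071 in cry2_Blue and 1.04 ± 0.052 in cry2_Dark. The blue libraries lay below cry2_Dark and WT_Dark 1-3 without overlap, and overlapped WT_Dark 4-6. JKD over SCR averaged 0.697 ± 0.142 in cry2_Blue and 1.55 ± 0.027 in cry2_Dark, and every cry2_Blue library was below every library of the other groups. In wild type it averaged 1.09 ± 0.292 in WT_Blue, against 1.39 ± 0.047 in WT_Dark 1-3, with overlap (exact permutation p = 0.30, two-sided), and 1.69 ± 0.320 in WT_Dark 4-6, without overlap. SHR over JKD was 0.803 to 1.39 in cry2_Blue and 0.516 to 0.618 in WT_Blue, a mean log2 difference of 0.95 without overlap. An exact permutation test of 3 against 3 libraries cannot go below p = 0.10 (two-sided), and each non-overlapping pair that was tested gave that value. In all, 4 ratios were compared over 7 pairs of groups.

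**Figure D4:**
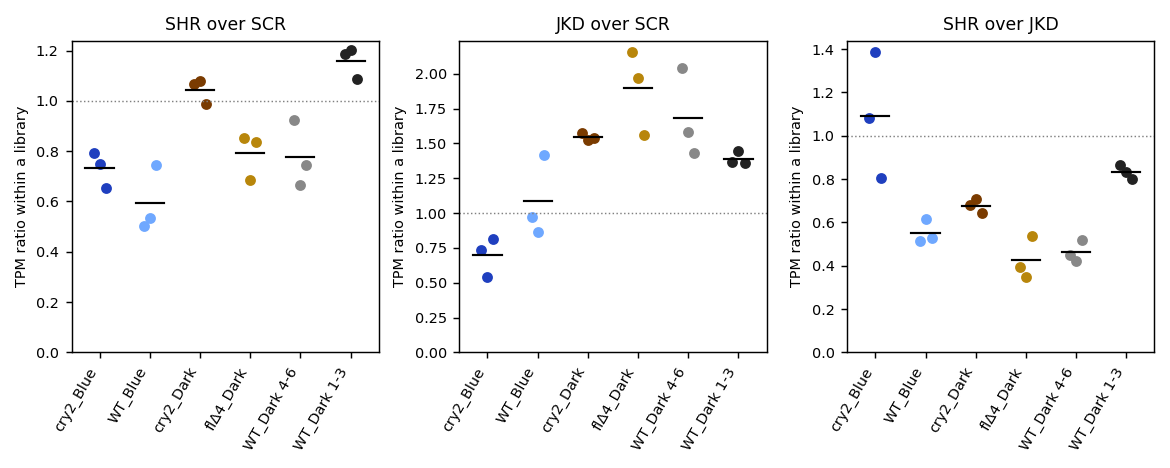
Ratios of TPM within each library for SHR over SCR, JKD over SCR and SHR over JKD (linear axes from 0); points are libraries, horizontal lines are group means and the dotted line marks a ratio of 1. JKD over SCR is below 1 in all 3 cry2_Blue libraries and above 1 in all 12 dark ones.

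Partners and targets of SHR and SCR were read next. Of 9 listed genes, 6 were lower and 0 higher in WT_Blue than in WT_Dark 1-3 (median log2 change -0.83, against -0.04 over all genes), 6 were lower against WT_Dark 4-6 (median -0.47, against -0.17) and 5 were lower in cry2_Blue than in cry2_Dark (median -0.50, against -0.05). The shares of all genes called lower in these contrasts were 32.9%, 20.1% and 30.2%. Between the dark wild-type sets, 4 of the 9 were lower and 1 higher in WT_Dark 4-6 than in WT_Dark 1-3. There 21.1% of all genes were lower and 29.8% higher. NUC, a zinc-finger relative of JKD, averaged 1.13 ± 0.07 TPM in WT_Blue, against 4.32 ± 0.19 TPM in WT_Dark 1-3 and 1.91 ± 0.25 TPM in WT_Dark 4-6. Its change was -1.32 (adjusted p = 1.3e-05) against the first set and -0.45 (adjusted p = 0.0626, limma) against the second. SCL3, a GRAS-domain gene activated by SHR and SCR, was lower against both sets, with changes of -0.83 (adjusted p = 1.33e-05) and -0.33 (adjusted p = 0.0429, limma). SCL23, the close relative of SCR, was lower, with a change of -0.62 (adjusted p = 0.00141) and -0.82 (adjusted p = 0.000409, limma). MYB36, which switches on endodermal differentiation, was lower in cry2_Blue than in cry2_Dark, with a change of -1.23 (adjusted p = 2.17e-05), and in WT_Blue than in WT_Dark 1-3, at -1.05 (adjusted p = 5.93e-05), but not past the threshold against WT_Dark 4-6, at -0.42 (adjusted p = 0.103, limma).

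SCZ, a heat-shock-factor-type regulator of ground tissue fate, was the 1 gene of the 9 in this list called between genotypes after light. Of all genes 3.34% were called in that contrast, and over all lists 3 of 59 genes tested were. It averaged 3.61 ± 0.22 TPM in cry2_Blue and 1.62 ± 0.26 TPM in WT_Blue, a change of 0.82 (adjusted p = 0.0117, limma). CYCD6;1, the cyclin that SHR and SCR activate for the formative division of the ground tissue, averaged 3.42 ± 0.77 TPM in cry2_Blue and 1.60 ± 0.22 TPM in WT_Blue, and its change of 0.75 did not pass (adjusted p = 0.0552, limma).

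The AP2-domain relatives of the PLETHORA genes moved with the dark set. ANT, known for organ growth, was higher in WT_Blue than in WT_Dark 1-3 by 0.47 (adjusted p = 0.0109) and PLT7 by 0.48 (adjusted p = 0.0182, limma). Against WT_Dark 4-6, PLT7 was lower, with a change of -0.74 (adjusted p = 0.00617, limma) and ANT changed by -0.24 (adjusted p = 0.208, limma). Both were higher in cry2_Blue than in cry2_Dark, by 0.68 for ANT and 0.75 for PLT7 (adjusted p = 0.0011 and 0.0013, limma). All 3 tested relatives were also higher in WT_Dark 4-6 than in WT_Dark 1-3, where 29.8% of all genes were higher, opposite to PLT3.

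Genes of the root meristem growth factor (RGF) peptide pathway, which sustains PLETHORA protein, were lower in 7 of 8 tested in WT_Blue against WT_Dark 1-3, in 2 of 7 against WT_Dark 4-6 and in 6 of 8 in cry2_Blue against cry2_Dark, with none higher. Of all genes 32.9%, 20.1% and 30.2% were lower, so the count against WT_Dark 4-6 is near that share. With no light in either set, 6 of 7 tested were lower and 1 higher in WT_Dark 4-6 than in WT_Dark 1-3. In that contrast 21.1% of all genes were lower and 29.8% higher. RGF3, AT5G48940 and AT2G12646 averaged 0.160, 0.710 and 0.383 TPM in WT_Blue, against 1.37, 1.75 and 1.65 TPM in WT_Dark 1-3. These loci reached the filter through the dark libraries, so their part in the counts is a description. The locus AT1G34110 of that list averaged 5.98 ± 0.23 TPM in WT_Blue, against 17.9 ± 1.89 TPM in WT_Dark 1-3 and 11.6 ± 1.32 TPM in WT_Dark 4-6. It was lower, with a change of -1.43 (adjusted p = 7.44e-07) and -0.85 (adjusted p = 0.000583, limma). TPST, the enzyme that sulfates these peptides, was lower in WT_Blue than in WT_Dark 4-6, with a change of -0.39 (adjusted p = 0.0336), but changed by -0.05 against WT_Dark 1-3 (adjusted p = 0.733) and by 0.12 in cry2-1 (adjusted p = 0.424, limma). TPST was itself higher in WT_Dark 4-6 than in WT_Dark 1-3, by 0.34 (adjusted p = 0.0242, limma).

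Among regulators of the stem cell niche and root cap, 3 of 6 tested were lower in WT_Blue than in WT_Dark 1-3, 3 of 5 than in WT_Dark 4-6, and 2 of 6 in cry2_Blue than in cry2_Dark. Over all genes 32.9%, 20.1% and 30.2% were lower, so the cry2-1 count is near that share. Between the dark wild-type sets, 1 of 5 tested was lower in WT_Dark 4-6, where 21.1% of all genes were. CLV1, a receptor kinase of meristems, averaged 9.03 ± 1.17 TPM in WT_Blue, against 22.0 ± 2.03 TPM in WT_Dark 1-3 and 13.6 ± 0.25 TPM in WT_Dark 4-6. It was lower, with a change of -1.20 (adjusted p = 3.73e-06) and -0.55 (adjusted p = 0.00613, limma). ACR4, a receptor kinase that restrains divisions of distal stem cells, was lower against WT_Dark 1-3 and WT_Dark 4-6, with changes of -0.83 and -0.69 (adjusted p = 0.00745 and 0.0495, limma). CLE40, a peptide of the root cap, was listed at 0 in all 18 libraries. The root cap factors SMB, BRN1, BRN2 and FEZ stayed under the filter. BRN2 was listed at 0 in all 3 cry2_Blue libraries and averaged 0.07 TPM in WT_Blue, against 1.85 ± 0.33 TPM in cry2_Dark, 0 in WT_Dark 4-6 and 1.95 ± 0.59 TPM in WT_Dark 1-3. In wild type it was thus below WT_Dark 1-3 after light but not below WT_Dark 4-6, and it was not tested.

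Auxin, the signal upstream of the PLETHORA genes, was read from 15 genes of transport, synthesis and response. In WT_Blue 13 were lower than in WT_Dark 1-3 and 8 than in WT_Dark 4-6, with none higher, and in cry2_Blue 11 were lower and 2 higher than in cry2_Dark. For comparison, 32.9%, 20.1% and 30.2% of all genes were lower in these contrasts, and 28.7%, 9.08% and 25.8% higher. Without light, 8 of the 15 were lower and 0 higher in WT_Dark 4-6 than in WT_Dark 1-3. The shares of all genes there were 21.1% lower and 29.8% higher. AUX1, the influx carrier, averaged 25.5 ± 6.40 TPM in WT_Blue, against 130 ± 1.84 TPM in WT_Dark 1-3 and 66.4 ± 2.76 TPM in WT_Dark 4-6. It was lower, with a change of -2.34 (adjusted p = 1.03e-07) against the first set and -1.38 (adjusted p = 0.000132, limma) against the second. PIN2, the efflux carrier of outer root tissues, averaged 1.66 ± 0.26 TPM in cry2_Blue and 13.1 ± 1.53 TPM in cry2_Dark, a change of -2.40 (adjusted p = 4.75e-08, limma). In wild type PIN2 averaged 1.29 ± 0.34 TPM in WT_Blue, against 11.6 ± 0.42 TPM in WT_Dark 1-3 and 2.93 ± 0.86 TPM in WT_Dark 4-6. The dark wild-type sets thus also differed widely in PIN2 without light. MP and BDL, the response factor and repressor that pattern the embryonic root, were the 2 genes higher in cry2_Blue, by 0.68 and 0.46 (adjusted p = 0.00142 and 0.00427, limma). TMO5, a target of MP, was higher in cry2_Blue than in WT_Blue by 0.70 (adjusted p = 0.00801, limma). It was the 1 gene of these 15 called there, where 3.34% of all genes were.

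Markers of differentiated root cells differed after light mainly against WT_Dark 1-3 and in cry2-1. Of 10 tested differentiation markers, 6 were lower and 2 higher in WT_Blue than in WT_Dark 1-3, 1 and 1 than in WT_Dark 4-6, and 7 and 1 in cry2_Blue than in cry2_Dark. Among all genes 32.9%, 20.1% and 30.2% were lower and 28.7%, 9.08% and 25.8% higher. The counts against WT_Dark 4-6 are thus near or under those shares. Between the dark wild-type sets, 7 of 11 tested were lower and 2 higher in WT_Dark 4-6 than in WT_Dark 1-3. There 21.1% of all genes were lower and 29.8% higher. CASP2, a scaffold protein of the Casparian strip, averaged 12.1 ± 0.23 TPM in WT_Blue, against 66.1 ± 6.68 TPM in WT_Dark 1-3 and 17.0 ± 9.59 TPM in WT_Dark 4-6. The summed level of the 15 listed markers was 4366 to 5584 TPM in cry2_Blue, 5215 to 8645 TPM in WT_Blue, 6036 to 7008 TPM in cry2_Dark, 5142 to 7753 TPM in flΔ4_Dark, 4478 to 7986 TPM in WT_Dark 4-6, and, in WT_Dark 1-3, 5517 to 5717 TPM. Most of this sum was 1 gene, PYK10, a beta-glucosidase, which averaged 5453 TPM in WT_Blue and 4773 TPM in WT_Dark 1-3 and was not called. TIP2;3, the next gene, averaged 824 TPM in WT_Blue and 427 TPM in WT_Dark 1-3 and was higher in WT_Blue (0.86, adjusted p = 0.017, limma). Without PYK10 and TIP2;3, a split made after their values were seen, the remaining 13 markers summed to 77.2 to 108 TPM in cry2_Blue, 84.2 to 107 TPM in WT_Blue, 289 to 368 TPM in cry2_Dark, 103 to 129 TPM in flΔ4_Dark, 64.0 to 132 TPM in WT_Dark 4-6, and, in WT_Dark 1-3, 376 to 450 TPM. That sum mainly follows the Casparian strip genes CASP1 to CASP5, which averaged 30.9 to 167 TPM in WT_Dark 1-3. No other marker of the 13 averaged above 4.87 TPM there. CPC, a small MYB protein of root hair patterning, was higher after light, by 1.76 and 1.12 against the 2 wild-type dark sets and by 1.52 in cry2-1 (adjusted p = 7.54e-06, 0.00248 and 3.62e-05, limma).

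Of 5 mitotic genes, 4 were lower in WT_Blue than in WT_Dark 1-3, 2 than in WT_Dark 4-6, and 4 in cry2_Blue than in cry2_Dark. In these contrasts 32.9%, 20.1% and 30.2% of all genes were lower. Without light, 4 of the 5 were lower and 0 higher in WT_Dark 4-6 than in WT_Dark 1-3, where 21.1% of all genes were lower. The summed level of the 5 mitotic genes was 46.9 to 53.5 TPM in cry2_Blue, 30.7 to 43.3 TPM in WT_Blue, 92.7 to 99.5 TPM in cry2_Dark, 27.7 to 47.6 TPM in flΔ4_Dark, 48.9 to 58.5 TPM in WT_Dark 4-6, and, in WT_Dark 1-3, 81.7 to 85.2 TPM. KNOLLE, the syntaxin of the cell plate, was higher in cry2_Blue than in WT_Blue by 0.73 (adjusted p = 0.0194, limma). It was the 1 gene of these 5 called there, where 3.34% of all genes were. Of 3 shoot apex genes tested, STM, which maintains the shoot meristem, was lower after light against both wild-type dark sets, with changes of -1.15 and -0.49, and in cry2-1, with a change of -0.83 (adjusted p = 9.06e-06, 0.0217 and 0.000179, limma). SPCH, which starts the stomatal lineage, was lower in WT_Blue against both sets, with changes of -1.25 and -1.32 (adjusted p = 0.0031 and 0.0161, limma). It averaged 0.970 TPM in WT_Blue, at 0.20 to 1.36 TPM, against 3.49 TPM in WT_Dark 1-3 and 3.90 TPM in WT_Dark 4-6. SPCH thus reached the filter through other groups, and its calls are a description. KNAT1, a homeobox gene of the shoot, was higher by 0.60 against WT_Dark 1-3 (adjusted p = 0.00117) and changed by 0.08 against WT_Dark 4-6 (adjusted p = 0.706, limma). The 8 listed shoot apex markers summed to 45.3 to 49.1 TPM in cry2_Blue, 51.2 to 66.9 TPM in WT_Blue, 43.2 to 52.2 TPM in cry2_Dark, 50.4 to 60.8 TPM in flΔ4_Dark, 55.9 to 69.7 TPM in WT_Dark 4-6, and, in WT_Dark 1-3, 48.1 to 54.3 TPM, so blue and dark ranges overlapped. Most of this sum was KNAT1, which averaged 49.4 TPM in WT_Blue, 46.8 TPM in WT_Dark 4-6 and 32.2 TPM in WT_Dark 1-3. The part that the amount of root tissue or of dividing cells has in the members' values was not tested.

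In flΔ4_Dark against WT_Dark 4-6, 0 of 54 listed genes tested were called (limma), where 0.304% of all genes were. Of the 54, 10 had an unadjusted p under 0.05, 9 of them lower. The share of all genes under that unadjusted threshold is not given here, so this count has no background to be read against. The median was -0.59 over the 5 mitotic genes and -0.27 over the 9 partners of SHR and SCR, against -0.12 over all genes. Against WT_Dark 1-3, 36 of 57 listed genes were lower and 4 higher, where 25.4% of all genes were lower and 24.4% higher. In cry2_Dark against WT_Dark 1-3, 1 listed gene of 59 was higher (CDKB2;2, a mitotic kinase, by 0.57) and 3 were lower (CASP5 at -1.14, TIR1 at -0.41 and CLV1 at -0.41). There 12.9% of all genes were called in either direction. Against WT_Dark 4-6, 28 of 57 listed genes were higher and 6 lower, where 20.5% of all genes were higher and 20.2% lower. CASP5 turned to 1.46 (adjusted p = 0.000189, limma).

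**Figure D5:**
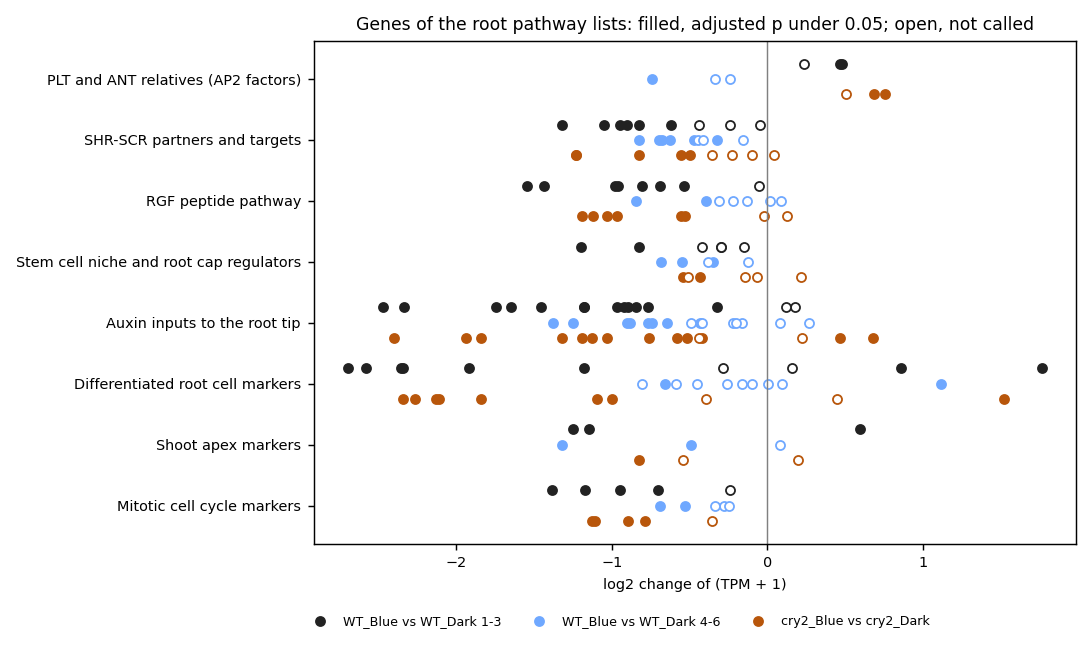
Log2 change of (TPM + 1) after blue light for every tested gene of the 8 lists; black is WT_Blue against WT_Dark 1-3, light blue WT_Blue against WT_Dark 4-6 and brown cry2_Blue against cry2_Dark, and filled markers passed the adjusted threshold. Partners of SHR and SCR lie at or left of 0 in nearly all cases, with 6, 6 and 5 filled markers, while the PLETHORA relatives lie right of 0 against WT_Dark 1-3 and left of it against WT_Dark 4-6.

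Over the 18 libraries the members fell into looser and tighter pairs, given as a description since libraries share group and header prefix. Pearson's r of log2(TPM + 1) was 0.80 for SHR with PLT3, 0.73 for SHR with SCR, 0.72 for SHR with MGP and 0.48 for SHR with JKD. After the mean of each set of 3 libraries was removed, these were 0.46, 0.54, -0.18 and 0.30. JKD with BBM, a gene under the filter in every fit, went from -0.03 to 0.87, the highest of the member pairs after that removal. JKD with PLT1 and JKD with PLT3 were at 0.80 and 0.79 after it. Among 19927 loci with a mean of at least 1 TPM, the 3 most like JKD were BAS1 (r = 0.961), IBH1 (0.938) and AT5G66590 (0.933). For SHR they were AT5G01890 (0.981), AT2G20010 (0.977) and ACO1 (0.975). For SCR they were PHYB (0.948), GT18 (0.948) and TPS7 (0.941), for PLT3 IRX1 (0.929), AT5G14510 (0.920) and AT5G52810 (0.919), and for MGP AT2G34670 (0.954), OASA1 (0.937) and GER2 (0.929). WOX5 had weaker ones, led by AT5G11610 (0.715), DCP1 (0.684) and AT5G55370 (0.669).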

How the data were processed

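The deposited files give TPM per locus, by the authors' own processing, for each of 18 libraries. The submitters' processing notes name fastp, HISAT2, StringTie and the TAIR10 build, with no settings or versions. Per the labels' protocols, RNA from whole seedlings entered a stranded mRNA kit. From the TPM values, log2(TPM + 1) was tested with limma 3.58.1 in R 4.3.3 (trend and robust), on loci averaging 1 TPM or more in the libraries of each fit, with Benjamini-Hochberg adjustment over all genes tested and a threshold of 0.05. The procedure was tested on simulated data. The 4 groups of WT_Dark 1-3, cry2_Dark, WT_Blue and cry2_Blue shared 1 fit, and flΔ4_Dark was fitted with WT_Dark 4-6. The labels do not say whether libraries came from separate cultures, so p-values measure only the spread between libraries, which may be technical. Libraries with the same number did not deviate together in most pairs of groups, so none were paired.

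The members and gene lists were chosen with earlier results of these data known. Named genes are the 9 members, up to 2 higher and 2 lower called genes of each list and comparison with the smallest p, the 3 loci most correlated with each member above 1 TPM, and the mutated genes. SCL3, SCL23, SCZ, CYCD6;1, CASP2, PYK10, TIP2;3, AUX1 and the root cap genes were also named outside that rule in some comparisons, after their values were seen. FL1, FL2 and FL3 were not analysed here. Alternatives were a pseudocount of 0.1 TPM, no filter, removal of 4 ribosomal RNA and 285 organelle loci, quantile normalization, the other dark set or all 6 WT_Dark libraries, a replicate block, and leaving out each library.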

Additional observations from a re-analysis of the deposited data

Results flagged for a closer look

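WOX5 in the WT_Dark group had 1 library far below the others. WT_Dark 1 stood at 0.53 TPM while the other 5 lay at 1.15 to 1.33 TPM, a gap of 0.775 of the group's range. Chance flags about 1 in 20 such groups, and 9 members were looked at in this group.

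The light difference of SHR differed between cry2-1 and wild type by 0.72 on the log2 scale (adjusted p = 0.0435, limma) with WT_Dark 1-3, and by -0.04 (adjusted p = 0.883, limma) with WT_Dark 4-6. CLV1 differed in the same test by 0.77 (adjusted p = 0.0415, limma) with WT_Dark 1-3 and by 0.12 (adjusted p = 0.654, limma) with WT_Dark 4-6. For both genes WT_Dark 1-3 held the higher dark level, and what sets the dark sets apart was not tested.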

How the results depend on the processing

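SHR and JKD after blue light kept their direction and call under each alternative run in wild type and cry2-1. Over these, the change of SHR ranged from -1.35 to -0.49 in wild type and from -0.62 to -0.41 in cry2-1, and that of JKD from -0.80 to -0.62 and from -1.24 to -1.02. No other dark set was available for cry2-1, so its alternatives, unlike those of wild type, did not vary the dark set. The choice of dark wild type moved most other counts. In WT_Blue, 12317 genes and 5 members were called against WT_Dark 1-3, 5794 and 2 against WT_Dark 4-6, and 6852 and 2 against all 6 libraries. In cry2_Dark, 2578 genes and 0 members were called against WT_Dark 1-3, 8104 and 3 against WT_Dark 4-6, and 414 genes against all 6. The interaction called 561 genes and 1 member, 4472 and 0 with WT_Dark 4-6, and 4 and 0 with all 6. In flΔ4_Dark, 59 genes and 0 members were called, 14 genes without a filter, 9790 and 3 against WT_Dark 1-3, and 247 genes against all 6. Members called in the interaction were also 0 without a filter and under quantile normalization, and 1 member was called in cry2_Blue against WT_Blue with a pseudocount of 0.1 TPM. The cause was not tested.

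Some member changes turned sign. Against WT_Dark 4-6, cry2_Dark gave 0.51 for SHR, 0.094 for SCR and -0.01 for JKD, and against all 6 libraries 0.13 for SHR. The interaction gave -0.30 for PLT3 and -0.044 for SHR with WT_Dark 4-6. WOX5 in flΔ4_Dark gave 0.10 against WT_Dark 1-3 and 0.018 against all 6. Quantile normalization gave 0.063 for WOX5 in WT_Blue against WT_Dark 1-3, -0.034 for JKD in cry2_Dark, -0.13 for WOX5 and -0.06 for MGP in cry2_Blue against WT_Blue, 0.031 for PLT3 and 0.10 for WOX5 in flΔ4_Dark, and -0.021 for JKD between the dark sets. Without ribosomal RNA and organelle loci JKD gave -0.054 in cry2_Dark and -0.054 between the dark sets.

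Leaving out 1 library at a time gave 1039 to 1838 genes called in cry2_Dark, 269 to 790 genes and 0 to 2 members in cry2_Blue against WT_Blue, 95 to 1555 genes and 0 to 1 member in the interaction, 19 to 2940 genes and 0 to 2 members in flΔ4_Dark, and 1 to 2 members between the dark sets. The largest count in flΔ4_Dark came without flΔ4_Dark 3, and that in the interaction without WT_Blue 3. WOX5 changes ranged from -0.19 to 0.17 in WT_Blue, from -0.27 to 0.001 in cry2_Dark, from -0.074 to 0.225 in cry2_Blue against WT_Blue, from -0.127 to 0.023 in flΔ4_Dark and from -0.012 to 0.291 between the dark sets. SCR ranged from -0.11 to 0.009 in cry2_Blue against cry2_Dark, PLT3 from -0.28 to 0.008 in flΔ4_Dark, and JKD from -0.037 to 0.149 between the dark sets.

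The replicate numbers showed no pairing over most groups: correlations of same-numbered libraries' deviations ran from -0.057 to 0.234, with 2 of 18 above 0.1. Both of these lay between WT_Blue and cry2_Blue, at 0.234 for number 2 and 0.219 for number 3, where number 1 gave 0.018. Libraries of different number in these groups ran from -0.262 to 0.127, so some pairing there stays possible. With the replicate block the interaction of SHR was 0.72 (adjusted p = 0.0649, limma), so 0 members were called. The block changed no other member's call.

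Depth is unknown for TPM values, so the precision of PLT1, PLT2, BBM, WOX5 and MGP, all near or under 1 TPM, rests on the spread between libraries. Each group held 3 libraries, except WT_Dark, whose 6 libraries were read mainly as sets of 3.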
